A study of Mus musculus with 24 samples.

Results

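Translation initiation and elongation factors were followed in ribosome-associated RNA from the spinal cord of adult mice. The members are the genes whose symbols begin with Eif1 to Eif6 or with Eef1 or Eef2. Pseudogenes, the Eif2ak kinases, Eif2b1 to Eif2b5, Eif4ebp1, Eif2s1, Eif2s3y and Eef1e1 were set aside. Of the 38924 genes listed per library, 68 matched by name, 17 of these were set aside and 51 remained. Symbols alone decide which genes are members, but the rule itself was written with earlier results of these data known.

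The study asked how a dominant mutation of Gars, the gene of glycyl-tRNA synthetase, changes the RNA on ribosomes of motor neurons. In the RiboTag method, cells with Cre build the ribosomal protein Rpl22 with an HA tag, and their ribosomes are pulled down by the tag together with the mRNA they hold. There were 24 pulldowns, each from its own mouse of 8 weeks, in 4 groups of 6. C201R mice with Cre had the genotype Rpl+/-;Chat+/-;C201R+/- and WT mice with Cre had Rpl+/-;Chat+/-;C201R+/+. C201R mice without Cre had Rpl+/-;Chat+/+;C201R+/- and WT mice without Cre had Rpl+/-;Chat+/+;C201R+/+. The taggable Rpl22 allele was therefore present in 1 copy in every mouse, and the strain background was B6.CgxB6.129 throughout. Cre came from the Chat locus, which is active in all cholinergic cells of the cord and not in motor neurons alone. Pulldowns without Cre give the background of the method.

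Initiation factors bring the small ribosomal subunit, the initiator tRNA and the mRNA together. The eIF4F complex binds the cap, eIF3 coats the small subunit, eIF2 carries the initiator tRNA, eIF1 and eIF1A guard the choice of start codon, and eIF5 and eIF5B complete the joining of the subunits. Elongation factor eEF1A then delivers each charged tRNA to the ribosome, its exchange factor eEF1B recharges it with GTP, and eEF2 moves the ribosome along. Neurons and striated muscle are known to replace eEF1A1, the form of most cells, by its close relative eEF1A2 after birth. Several members come as such pairs of related genes, and these pairs are described on their own further on.

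The promoters of the genes on which the results turn are shown first, because the Eef1a1 and Eef1a2 pair and the Eif1 and Eif5a2 genes moved differently in these pulldowns. Each stretch runs 5′ to 3′ on the gene's own strand over 150 bases, of which 120 lie before the annotated start and 30 after it, from RefSeq on GRCm38.p6. Capitals mark a match to TATATAA, a form of the TATA box.
Eef1a1 (chr9:78481695-78481844, minus strand): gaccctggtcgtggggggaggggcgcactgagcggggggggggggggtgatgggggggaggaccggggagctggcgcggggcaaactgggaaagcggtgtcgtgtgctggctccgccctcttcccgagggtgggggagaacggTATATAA
Eef1a2 (chr2:181156986-181157135, minus strand): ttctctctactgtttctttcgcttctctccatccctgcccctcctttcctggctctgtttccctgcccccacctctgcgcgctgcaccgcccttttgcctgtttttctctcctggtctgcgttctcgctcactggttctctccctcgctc
Eif1 (chr11:100319829-100319978, plus strand): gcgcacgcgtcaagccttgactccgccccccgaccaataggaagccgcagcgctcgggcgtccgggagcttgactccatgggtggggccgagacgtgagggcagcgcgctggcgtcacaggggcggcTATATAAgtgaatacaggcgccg
Eif5a2 (chr3:28781157-28781306, plus strand): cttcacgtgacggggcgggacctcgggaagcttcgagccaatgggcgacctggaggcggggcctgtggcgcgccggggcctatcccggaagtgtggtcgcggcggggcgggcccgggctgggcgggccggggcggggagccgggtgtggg
The Eef1a1 and Eif1 stretches hold the motif, downstream of the annotated start in each, and those of Eef1a2 and Eif5a2 do not. The same stretches of Eif2s2, Eif3c and Eef1b2, not printed here, do not hold it either. These genes rose in C201R with Cre, as Eef1a1 and Eif1 did. A link between the motif and the changes was not tested. Of the members, 39 matched the promoter table, with 53 windows that reach from 250 bases before the start to 50 after it. On either strand, TATATAA occurred in 2 of these windows (3.77%), against 3.24% of all 32851 windows. TGATGNAA, the form of element bound by ATF4 with its partners, occurred in 2 member windows (3.77%) and 3.97% of all windows. TGACGTCA, the cyclic AMP response element, occurred in 1 member window (1.89%) and 1.79% of all windows. Counts of 1 or 2 windows are too few to show an excess or a lack.

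Libraries held between 8.9 and 28.3 M expected counts each. The members together took 0.6 ± 0.204% of counts in C201R mice with Cre, 0.682 ± 0.157% in WT mice with Cre, 0.233 ± 0.083% in C201R mice without Cre and 0.234 ± 0.048% in WT mice without Cre (SD, n = 6 each). Of the 11 cholinergic markers listed in the files, 10 rose in pulldowns with Cre (median log2 change 3.83 over the 11), and all 12 oligodendrocyte markers fell. The numbers of the libraries form separate runs, here library series 1 with 7 and library series 2 with 17 libraries, whose meaning the labels do not give. With Cre, series 1 holds 3 C201R and 2 WT libraries. C201R mouse 14003-1 and WT mouse 14701-9, both in series 1, stand apart from the others of their groups by their mitochondrial share. The mitochondrial share of counts was 15.8% in mouse 14003-1, with 6.45% the highest of the other C201R libraries with Cre, and 17.1% in mouse 14701-9, with 3.67% the highest of the other WT libraries with Cre. The share of Gm26924, a model to which reads of ribosomal RNA map, was 30.8% in mouse 14701-9, with 11.9% the highest of the other WT libraries with Cre. Mouse 14003-1 did not stand apart in this share, with 43.3%, since the other C201R libraries of series 1 had 36.9 and 32.9%. In bulk pulldowns, fewer tagged cells and less RNA per cell cannot be told apart.

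Among pulldowns with Cre, Eef1a1 was the member that differed most between the genotypes. Its fold change was 2.08 in C201R over WT, and 4 further members rose, namely Eif1, Eif3c, Eef1b2 and Eif2s2. Eif5a2 fell, and the other 42 of 48 tested members did not pass the test. The members therefore gave 5 higher calls, while 2.29% of all 14634 tested genes were called higher, and 1 lower call, while 1.82% of all genes were called lower. A gene was called where edgeR's quasi-likelihood test gave an adjusted p under 0.05 over all genes tested. The median log2 change was 0.10 over the tested members and -0.01 over all genes. In the plot of genotype changes by role, the members' changes lie between -0.76 and 1.06.

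**Figure D1:**
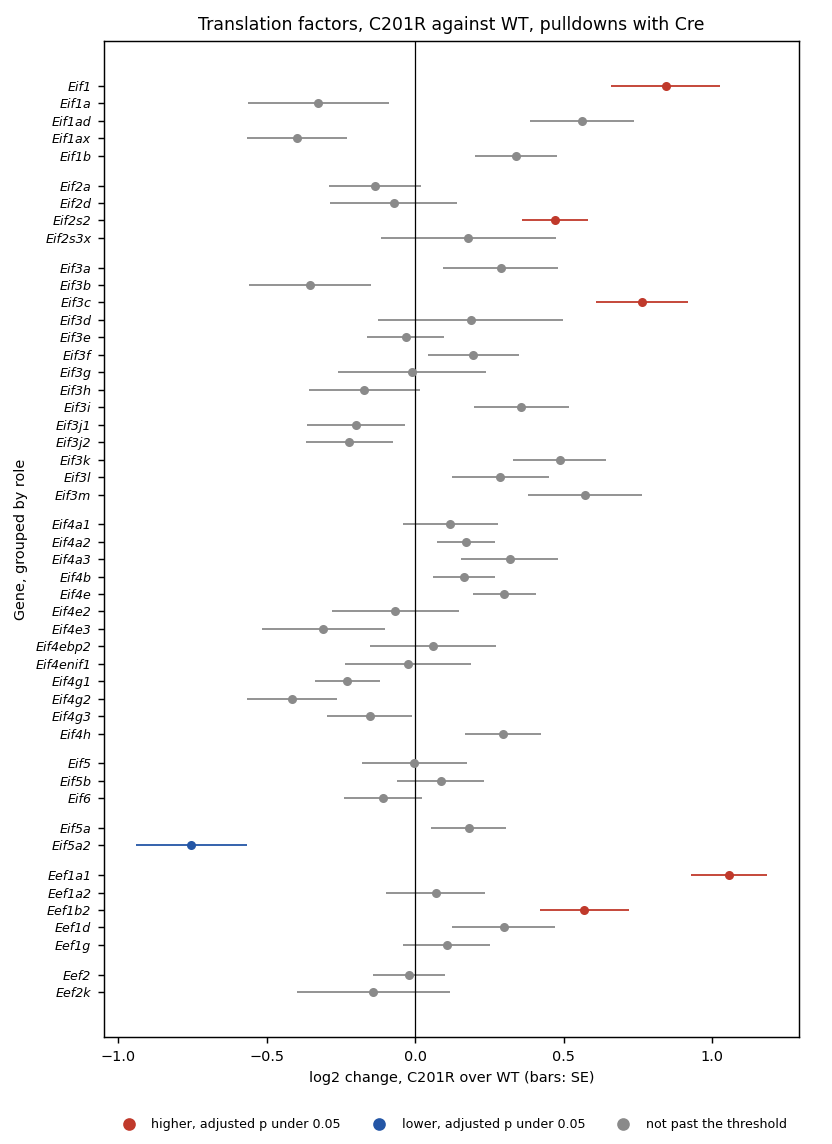
log2 change of C201R over WT in pulldowns with Cre for the 48 tested members, grouped by role, with bars of SE (6 libraries in each group). Eef1a1 at 1.06 and Eif5a2 at -0.76 mark the ends, and only the coloured points passed the adjusted p of 0.05.

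Eef1a1 (ENSMUSG00000037742), which encodes the tRNA-delivering elongation factor of most cells, had 218.1 CPM in the lowest of the C201R libraries with Cre, a median of 275.6 and 459.8 in the highest. In WT with Cre its lowest value was 110.4 CPM, its median 124.7 and its highest 182.2. CPM is the count divided by the library total, in M, after scaling by the trimmed mean of M values (TMM). All 6 C201R libraries lay above all 6 WT libraries. The log2 change was 1.06 ± 0.13 (SE, adjusted p = 0.0003). Libraries of series 1 averaged 363.1 CPM in C201R and 174.7 CPM in WT. Those of series 2 averaged 245.1 CPM in C201R and 117.8 CPM in WT, so the genotypes kept apart within each series. Without mice 14003-1 and 14701-9 the log2 change was 1.13 (adjusted p = 1.62e-05). Its counts were not whole in any of the 24 libraries, which means that reads had been divided between it and similar genes.

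The exchange factor that serves eEF1A has the subunits encoded by Eef1b2, Eef1d and Eef1g. Eef1b2 (ENSMUSG00000025967) had a median of 147.8 CPM in C201R with Cre (range 103.9 to 238.2) and 93.44 CPM in WT with Cre (range 85.92 to 122.3). The C201R values reach higher but overlap those of WT. Its log2 change was 0.57 ± 0.15 (SE, adjusted p = 0.0442). Eef1d and Eef1g, with changes of 0.30 ± 0.17 and 0.11 ± 0.15, did not pass (adjusted p = 0.385 and 0.753). Eef1a2, the neuronal and muscle form of eEF1A, had a median of 124.4 CPM in C201R (range 102.7 to 229.5) and 130.7 CPM in WT (range 110.4 to 146.8). Its values overlap fully, and its change was 0.07 ± 0.17 (adjusted p = 0.875). All 5 eEF1 genes had positive changes, and 2 of them passed the test.

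Eef2, which encodes the translocation factor, had a median of 320.8 CPM in C201R (range 277.1 to 379.5) and 333.3 CPM in WT (range 256.9 to 372.0), with a change of -0.02 ± 0.12 (adjusted p = 0.95). Eef2k, whose kinase product inhibits eEF2, had a change of -0.14 ± 0.26 (adjusted p = 0.82). Neither gene of the translocation step was called.

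Of the 5 genes grouped as the eIF1 family, some of which help the scanning ribosome to find the start codon, 1 rose. Eif1 (ENSMUSG00000035530) had a median of 263.7 CPM in C201R with Cre (range 143.4 to 423.1) and 108.0 CPM in WT with Cre (range 101.4 to 223.4). A single WT library, mouse 14701-9, overlaps the C201R range, and the other 5 WT libraries stay at or under 122.1 CPM. The log2 change was 0.84 ± 0.18 (SE, adjusted p = 0.0198). Its counts, like those of Eef1a1, were not whole in any of the 24 libraries. Series 1 averaged 349.2 CPM in C201R and 167.7 CPM in WT, and series 2 averaged 173.9 CPM in C201R and 107.6 CPM in WT. Eif1b, its close relative, had a change of 0.34 ± 0.14 (adjusted p = 0.191). The genes of eIF1A, which binds beside eIF1, had negative changes that did not pass: -0.33 ± 0.24 for Eif1a and -0.40 ± 0.17 for Eif1ax (adjusted p = 0.506 and 0.215).

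The eIF2 complex carries the initiator tRNA, and Eif2s2 (ENSMUSG00000074656) encodes its beta subunit. Eif2s2 had a median of 160.9 CPM in C201R with Cre (range 140.4 to 194.2) and 119.3 CPM in WT with Cre (range 109.3 to 124.3). The groups did not overlap, and the log2 change was 0.47 ± 0.11 (SE, adjusted p = 0.0309). Its counts were not whole in 17 libraries. Eif2s3x, which encodes the gamma subunit, ranged from 92.56 to 314.1 CPM in C201R and from 92.67 to 194.3 CPM in WT. Its change was 0.18 ± 0.30 (adjusted p = 0.799), and its counts were not whole in 22 libraries. The gene lies on the X chromosome, and the main fit held no term for sex. Eif2a and Eif2d, which encode factors that can deliver initiator tRNA by other routes, had changes of -0.14 ± 0.16 and -0.07 ± 0.21 (adjusted p = 0.695 and 0.897).

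Of the 14 genes of eIF3, the large scaffold that holds the small subunit, Eif3c alone was called. Eif3c (ENSMUSG00000030738) had a median of 342.1 CPM in C201R with Cre (range 279.2 to 470.7) and 224.3 CPM in WT with Cre (range 148.7 to 243.7). All 6 C201R libraries lay above all 6 WT libraries. The log2 change was 0.76 ± 0.16 (SE, adjusted p = 0.0143), and without mice 14003-1 and 14701-9 it was 0.60 (adjusted p = 0.00322). Its counts were not whole in 14 libraries. Of the other 13 eIF3 genes, 7 had positive and 6 negative changes, from -0.36 to 0.57, with a median of 0.19. Eif3k and Eif3m had changes of 0.49 ± 0.16 and 0.57 ± 0.19 (adjusted p = 0.10 and 0.115). Eif3a, which encodes the largest subunit, and Eif3e had changes of 0.29 ± 0.19 and -0.03 ± 0.13 (adjusted p = 0.469 and 0.925).

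None of the 13 tested genes grouped under cap binding, eIF4F and its regulators was called, and their median change was 0.06. Genes were placed in this role by symbol, so a place in it does not show that a gene acts at the cap. Eif4e, the cap-binding protein gene, had a median of 147.2 CPM in C201R with Cre (range 126.5 to 161.5) and 115.2 CPM in WT with Cre (range 106.9 to 122.2). All C201R libraries lay above all WT libraries, yet its change of 0.30 ± 0.11 did not pass over all genes (adjusted p = 0.129). It was 1 of 4 tested members whose groups did not overlap, with Eef1a1, Eif2s2 and Eif3c. All 4 lay higher in C201R, as did 1.72% of all 14634 genes; 0 members and 1.34% of all genes lay lower without overlap. Eif4g2, which encodes a relative of the eIF4G scaffold that lacks the eIF4E site, had the lowest change of this role, -0.42 ± 0.15 (adjusted p = 0.147). The scaffold genes Eif4g1 and Eif4g3 had changes of -0.23 ± 0.11 and -0.15 ± 0.14 (adjusted p = 0.282 and 0.619). The helicase genes Eif4a1 and Eif4a2 had 0.12 ± 0.16 and 0.17 ± 0.10 (adjusted p = 0.75 and 0.382), and the helicase partners Eif4b and Eif4h had 0.17 ± 0.10 and 0.30 ± 0.13 (adjusted p = 0.429 and 0.226). Eif4ebp2, which encodes the eIF4E-binding repressor common in brain, had a change of 0.06 ± 0.21 (adjusted p = 0.917). The cap-binding relatives Eif4e2 and Eif4e3 had -0.07 ± 0.22 and -0.31 ± 0.21 (adjusted p = 0.908 and 0.467).

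The eIF5A protein carries hypusine, a modified lysine, and helps ribosomes through difficult peptide bonds. Eif5a2 (ENSMUSG00000050192), 1 of the 2 genes, had a median of 164.6 CPM in C201R with Cre (range 62.33 to 200.1) and 277.5 CPM in WT with Cre (range 146.0 to 322.9). Its lowest WT value belongs to mouse 14701-9 and its lowest C201R value to mouse 14003-1. The log2 change was -0.76 ± 0.19 (SE, adjusted p = 0.0365), and without these mice it was -0.73 (adjusted p = 0.00157). Its counts were whole in every library. Eif5a, the common form, had a change of 0.18 ± 0.13 (adjusted p = 0.487). The subunit-joining factors Eif5 and Eif5b had changes of -0.003 ± 0.18 and 0.09 ± 0.15, and Eif6, which keeps free large subunits apart, had -0.11 ± 0.13 (adjusted p = 0.993, 0.807 and 0.718).

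The plot of the 6 called members by library shows their levels in all 4 groups. In the 12 fits that each leave out 1 library, Eef1a1 and Eif3c were called in 12, Eif1 in 9, Eef1b2 in 4, Eif2s2 in 3 and Eif5a2 in 3. Of all genes, 1.14 to 6.27% were called in these fits. Eif1 lost its call without C201R mouse 14703-4 or WT mouse 14702-3 or 14004-3 (adjusted p up to 0.0962). Eef1b2 kept it only without C201R mouse 14003-1, 14004-2, 14701-5 or 14004-5 (up to 0.167 in the other fits). Eif2s2 and Eif5a2 kept it only without C201R mouse 14003-1 or 14701-5 or WT mouse 14701-9 (up to 0.0931 for Eif2s2 and 0.155 for Eif5a2). With the Gm26924 share as a covariate Eef1a1 alone was called (1.04, adjusted p = 0.00249), while 0.834% of all genes were. Eif3c and Eif2s2 then had changes of 0.74 and 0.45 (adjusted p = 0.111 and 0.163), close to those above. Those of Eif1, Eef1b2 and Eif5a2 were smaller by over 1.5 times, at 0.47, 0.32 and -0.45 (adjusted p = 0.218, 0.524 and 0.492). The Gm26924 share was 25.4 ± 14.5% in C201R and 13.2 ± 8.8% in WT with Cre (SD, n = 6 each). Scaled by library totals alone, which moved the median of all genes to -0.26, no member was called, and 0.219% of all genes were. Eef1a1, Eif1 and Eif5a2 then had changes of 0.82, 0.63 and -1.01 (adjusted p = 0.376, 0.429 and 0.378). Eif3c, Eef1b2 and Eif2s2 had 0.42, 0.285 and 0.19 (adjusted p = 0.577, 0.676 and 0.8), all under the changes above by over 1.5 times.

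**Figure D2:**
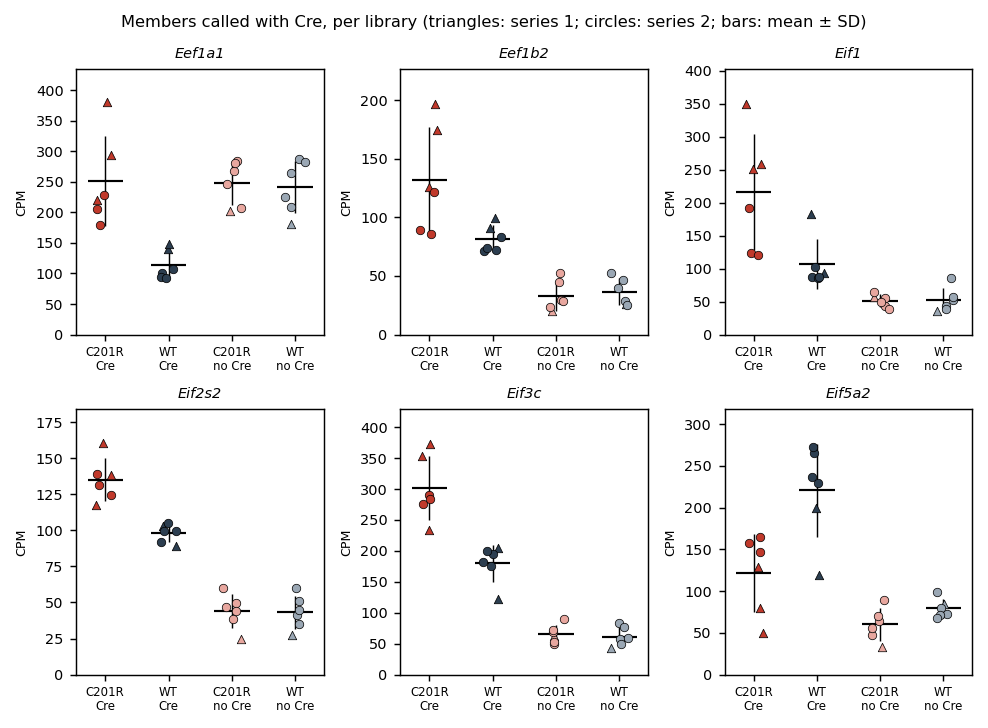
CPM of the 6 members called between genotypes with Cre in each of the 24 libraries, scaled over all 24 (triangles, library series 1; circles, series 2; bars, mean ± SD, n = 6 per group). With Cre, Eef1a1 lies between 180.1 and 380.1 CPM in C201R and between 93.23 and 148.7 CPM in WT.

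Markers of other cells were set beside these values. Summed oligodendrocyte markers with Cre ranged from 588.0 to 881.5 CPM in C201R (median 669.1) and from 531.0 to 1162 CPM in WT (median 704.8). The astrocyte markers ranged from 504.5 to 616.4 CPM in C201R (median 602.9) and from 518.4 to 838.8 CPM in WT (median 587.8). The 8 skeletal muscle markers ranged from 34.58 to 340.0 CPM in C201R (median 71.38) and from 2.073 to 265.4 CPM in WT (median 11.41). The 7 blood cell markers ranged from 22.96 to 492.1 CPM in C201R (median 168.0) and from 26.68 to 188.0 CPM in WT (median 47.11). The other spinal neuron markers ranged from 140.0 to 201.9 CPM in C201R (median 151.1) and from 106.7 to 166.0 CPM in WT (median 119.0). The microglia markers ranged from 19.48 to 36.41 CPM in C201R (median 26.42) and from 13.3 to 29.76 CPM in WT (median 17.79). The endothelial and mural markers ranged from 31.23 to 91.09 CPM in C201R (median 40.09) and from 28.58 to 90.36 CPM in WT (median 33.02). No marker of these lists was at 0 in either group. None of the tested markers of these lists was called between the genotypes, and their part in the members' changes was not tested. Of the 11 cholinergic markers, 2 were lower in C201R, Chodl with a log2 change of -1.02 ± 0.14 and Lhx4 with -0.97 ± 0.25 (SE, adjusted p = 0.000635 and 0.0441). The other 9 were not called, and the median change over the 11 was 0.07. Over all genes, 1.82% were called lower. Summed cholinergic markers with Cre ranged from 1049 to 1466 CPM in C201R (median 1310) and from 933.9 to 1736 CPM in WT (median 1520).

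Genes that work with the members were counted in the same fit, in which 2.29% of all genes were called higher and 1.82% lower. Of 26 initiation partners, which include the kinases and exchange factors that regulate initiation, 1 was called, and the median change was -0.10. That gene was Rps6kb1, which encodes the S6 kinase that acts on Eif4b and ribosomal protein S6 downstream of mTORC1, with a log2 change of -0.92 ± 0.16 (SE, adjusted p = 0.0043). None of the 8 termination and recycling factors (median 0.03), the 2 hypusine enzymes (median 0.31) or the 9 mitochondrial translation factors (median 0.25) was called. The same was true of the 12 tested genes of the same families that the rule set aside (median 0.05). Of the 9 members whose mRNAs are known to carry a 5′ TOP, the tract through which mTORC1 controls translation, 2 rose, Eef1a1 and Eef1b2, with a median of 0.11 over the 9. The other 7 were not called. Of 19 tested ATF4 targets, 16 rose (median 1.63), among them Atf4 itself with a log2 change of 1.67 ± 0.18 (SE, adjusted p = 9.43e-05).

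Without Cre, the genotypes did not differ in any member by the test. None of the 48 tested members was called, and 0.0% of all 14400 genes were. At an unadjusted p under 0.05 there was 1 member and 455 genes, and DESeq2 and limma-voom called 0 members each. The member with the unadjusted p under 0.05 was Eif5a2, with a median of 47.55 CPM in C201R (range 28.14 to 76.58) and 65.00 CPM in WT (range 52.54 to 81.08). Its change of -0.44 ± 0.21 has the sign it had with Cre, and the adjusted p was 1.0. Eef1a1 had a median of 216.4 CPM in C201R (range 175.8 to 224.7) and 196.8 CPM in WT (range 157.7 to 235.1), with a change of 0.04 ± 0.14. Eif1 and Eif3c had changes of -0.01 ± 0.21 and 0.11 ± 0.18, and the members had a median of 0.004 against -0.04 for all genes.

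The interaction tests whether the genotype change with Cre differs from that without it. No member was called, and 0.13% of all 16109 genes were; 7 members had an unadjusted p under 0.05, and so did 1462 of all genes (9.08%). Eef1a1 came nearest, with an interaction of 1.07 ± 0.25 on the log2 scale (SE, adjusted p = 0.0888). It passed with DESeq2 (adjusted p = 0.00584), with limma-voom (adjusted p = 0.0127) and without WT mouse 14701-1 of the group without Cre (adjusted p = 0.0249), and over the alternatives its adjusted p ranged from 0.00584 to 0.965. Eif1, Eef1b2, Eif3c and Eif2s2 had interactions of 0.96 ± 0.33, 0.79 ± 0.34, 0.68 ± 0.26 and 0.49 ± 0.25 (adjusted p = 0.326, 0.471, 0.428 and 0.568). That of Eif5a2 was -0.32 ± 0.30 (adjusted p = 0.791). Over all 24 libraries the call for Eef1a1 therefore depends on the tool, with edgeR giving none.

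The pulldowns with Cre were compared with those without it over both genotypes, to ask which factors are enriched on tagged ribosomes. Most were: 38 of the 48 tested members were higher with Cre and 2 lower, while 33.1% of all 16109 genes were higher and 37.2% lower. The median log2 change was 1.28 over the members and -0.12 over all genes. Eif5a and Eef1a2 led the increases, and Eef1a1 and Eif4e3 were the decreases. Scaled by library totals alone, 43 members were higher and 0 lower, and the median of all genes moved to 0.55. Over all genes the split was 5328 higher and 5993 lower, and with library totals 7403 higher and 3848 lower. The mitochondrial share of counts averaged 6.9% in C201R and 5.0% in WT with Cre, and 45.4% in C201R and 48.3% in WT without Cre, and its part in these changes was not tested.

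**Figure D3:**
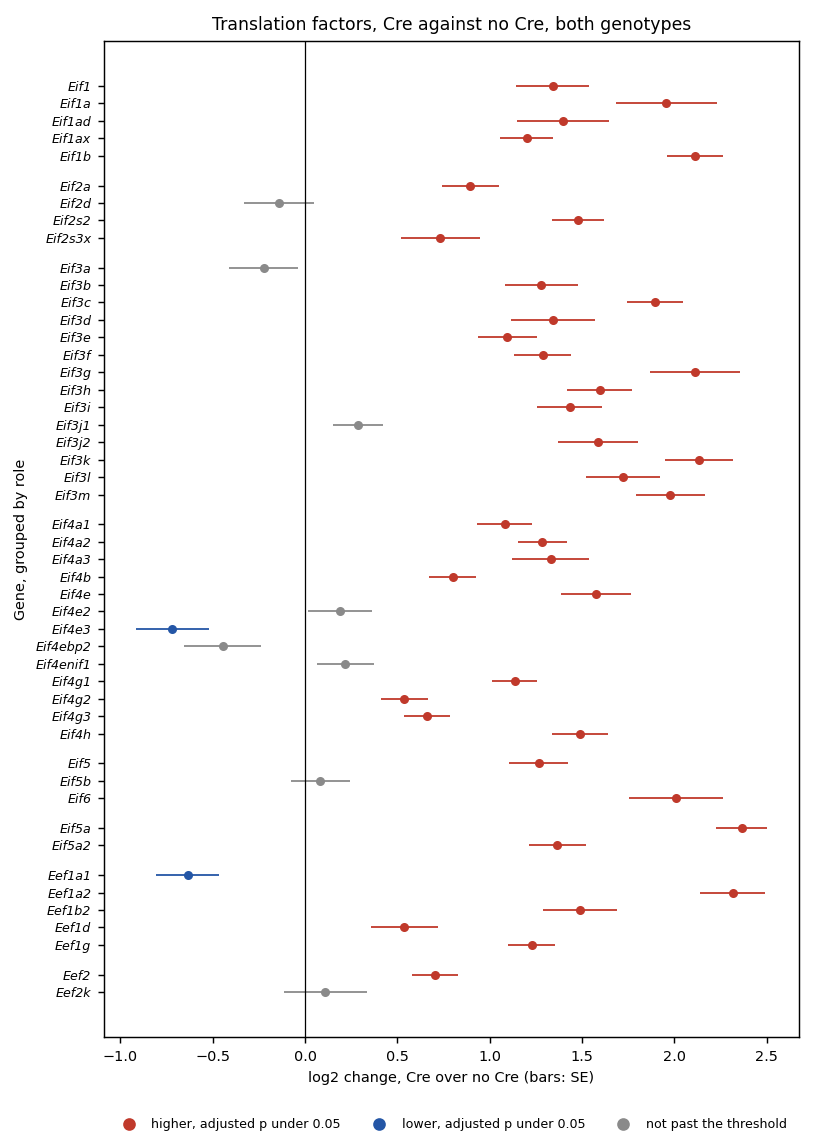
log2 change of Cre over no Cre across both genotypes for the 48 tested members, grouped by role, with bars of SE (12 libraries in each arm). Most points lie to the right of 0, with a median of 1.28, and Eef1a1 and Eif4e3 lie to its left among the called members.

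Eif5a had a median of 159.6 CPM in C201R with Cre (range 119.6 to 173.6) and 27.57 CPM in C201R without Cre (range 16.77 to 35.6). In WT it had 129.1 CPM with Cre (range 107.0 to 157.4) and 24.49 CPM without Cre (range 19.96 to 38.49). Its groups did not overlap in either genotype, and the log2 change was 2.36 ± 0.14 (SE, adjusted p = 1.14e-14). Eef1a2 had a median of 104.4 CPM in C201R with Cre (range 84.85 to 182.1) and 20.85 CPM in C201R without Cre (range 16.68 to 31.8). In WT it had 107.9 CPM with Cre (range 92.88 to 123.0) and 20.19 CPM without Cre (range 12.96 to 38.39), and the log2 change was 2.32 ± 0.18 (adjusted p = 1.92e-12). Of the other large increases, 3 were eIF3 subunit genes, Eif3k (2.13 ± 0.19), Eif3g (2.11 ± 0.24) and Eif3m (1.98 ± 0.19), and the others were Eif1b (2.11 ± 0.15), Eif6 (2.01 ± 0.25) and Eif1a (1.96 ± 0.27). By role, all 5 genes of the eIF1 family were higher with Cre, and so were 12 of 14 of eIF3, 3 of 4 of the eIF2 role, both of eIF5A, 2 of 3 of eIF5, eIF5B and eIF6, 4 of 5 of eEF1, 1 of 2 of eEF2 and its kinase, and 9 of 13 of cap binding.

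Eef1a1 was lower with Cre, while the other 4 eEF1 genes were higher. In WT its median was 104.4 CPM with Cre (range 93.23 to 148.7) and 244.7 CPM without Cre (range 181.2 to 287.9), with all libraries with Cre under all those without. In C201R its median was 225.0 CPM with Cre (range 180.1 to 380.1) and 257.5 CPM without Cre (range 202.8 to 284.5), and these overlap. Over both genotypes its log2 change was -0.64 ± 0.17 (SE, adjusted p = 0.0018). Its direction depends on the scaling: with library totals the change was 0.05 (adjusted p = 0.843). In series 1 alone, which has 5 libraries with Cre and 2 without, it was 0.26 (adjusted p = 0.676). Eif4e3, the gene of an unusual cap-binding protein, had a median of 5.504 CPM in C201R with Cre and 14.25 CPM in C201R without Cre, and 8.429 CPM in WT with Cre and 13.48 CPM in WT without Cre. Its log2 change was -0.72 ± 0.20 (adjusted p = 0.00204), and it was called in 11 of 14 alternative fits, with changes from -1.09 to -0.01.

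The 8 tested members without a call included Eif3a (-0.23 ± 0.19), Eif2d (-0.14 ± 0.19), Eif4ebp2 (-0.45 ± 0.21), Eif5b (0.08 ± 0.16), Eif4e2 (0.19 ± 0.17) and Eef2k (0.11 ± 0.22), with adjusted p from 0.0566 to 0.671. Of the genes that work with them, 17 of 26 initiation partners were higher and 4 lower, all 8 termination and recycling factors were higher, and so were 6 of 9 mitochondrial translation factors, with 1 lower.

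Levels per length, in TPM (each transcript's length-corrected share of its library), order the members within a group. In C201R with Cre the highest medians were those of Eif1 (656.0 TPM, range 352.6 to 932.4), Eif4a2 (478.2 TPM, range 196.8 to 656.6) and Eef1a1 (309.5 TPM, range 92.69 to 364.6), whose ranges overlap. In WT with Cre they were those of Eif4a2 (618.8 TPM) and Eif1 (412.6 TPM), while Eef1a1 ranked 10 of 51 with 188.5 TPM (range 95.16 to 268.6). Without Cre Eef1a1 ranked 1 in each genotype, with 208.4 TPM in C201R and 196.5 TPM in WT. At the low end, Eif2c5, Eif4e1b and Eif4ebp3 had too few counts to be tested in any comparison. Eif2c5, whose name belongs to an older series used for Argonaute genes, had 15 counts over all libraries. The egg-cell cap-binding gene Eif4e1b had 32 counts in 3 libraries, and the repressor gene Eif4ebp3 had 32.9 counts in 2 libraries.

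Pairs of related genes were compared by share, which does not depend on the scaling between libraries. Library series was not a term in these comparisons, and with Cre series 1 holds 3 C201R and 2 WT libraries. The share is the percent of the pair's summed TPM that comes from the first gene, and 20 exact two-sided permutation tests (5 pairs in 4 contrasts, 6 libraries against 6) were adjusted together; the smallest p such a test can give is 0.0022. With Cre the share of Eef1a2 in Eef1a2 and Eef1a1 was 26.28 ± 5.75% in C201R and 41.42 ± 5.23% in WT (SD, n = 6 each). Values ran from 21.31 to 36.17% in C201R and from 35.64 to 50.24% in WT, so that they overlapped only at the edge. The difference was -15.14 percentage points (exact permutation p = 0.00433, adjusted p = 0.0173). Series 1 averaged 26.49% in C201R and 36.69% in WT, and series 2 averaged 26.07% in C201R and 43.79% in WT. Without Cre the share was 5.32 ± 1.21% in C201R and 5.71 ± 1.33% in WT (exact permutation p = 0.608, adjusted p = 0.724). The share was higher with Cre than without Cre by 20.96 points in C201R and by 35.72 points in WT (exact permutation p = 0.00216 each, adjusted p = 0.0108).

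The share of Eif1b in Eif1b and Eif1 was 25.73 ± 6.28% in C201R and 36.02 ± 3.98% in WT with Cre (SD, n = 6 each), a difference of -10.29 points (exact permutation p = 0.013, adjusted p = 0.0325). Series 1 averaged 20.78% in C201R and 34.33% in WT, and series 2 averaged 30.68% in C201R and 36.87% in WT. Without mice 14003-1 and 14701-9 the difference was -10.8 points (exact permutation, adjusted p = 0.0529). Without Cre the Eif1b share was 19.91 ± 3.02% in C201R and 22.85 ± 6.91% in WT (exact permutation, adjusted p = 0.522). The Eif1b share was higher with Cre than without Cre by 13.18 points in WT (exact permutation, adjusted p = 0.0216), and the difference of 5.82 points in C201R did not pass (exact permutation, adjusted p = 0.138). The share of Eif5a2 in Eif5a2 and Eif5a was 14.68 ± 6.42% in C201R and 26.97 ± 7.6% in WT with Cre, a difference of -12.29 points (exact permutation p = 0.0173, adjusted p = 0.0385). Series 1 averaged 9.52% in C201R and 18.63% in WT, and series 2 averaged 19.83% in C201R and 31.14% in WT. Mouse 14701-9 had the lowest share of the WT libraries with Cre for both pairs, 29.5% for Eif1b and 14.03% for Eif5a2. Whether the shares follow the Gm26924 share was not tested. Without Cre the Eif5a2 share was 33.55 ± 10.79% in C201R and 41.07 ± 3.88% in WT (exact permutation, adjusted p = 0.195). The Eif5a2 share was lower with Cre than without Cre, with differences of -18.87 points in C201R and -14.1 points in WT (exact permutation, adjusted p = 0.0108 each). With 1 library left out, the Eif1b genotype difference with Cre ran from -11.79 to -8.68 points over 12 fits. It lost its call in 8 and kept it without C201R mouse 14004-2 or 14004-5 or WT mouse 14703-5 or 14701-9. The Eif5a2 difference ran from -14.88 to -10.57 points. It lost its call in 9 of 12 and kept it without C201R mouse 14004-2 or 14004-5 or WT mouse 14701-9. The Eef1a2 difference passed in all 12, from -17.12 to -13.38 points.

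For the remaining pairs the genotypes differed by less than their spread. Eif4a2 made up 90.25 ± 3.13% of its pair with Eif4a1 in C201R and 89.69 ± 2.53% in WT with Cre (SD, n = 6 each; exact permutation, adjusted p = 0.738). Eif4g3 made up 55.48 ± 6.17% of its pair with Eif4g1 in C201R and 54.58 ± 1.58% in WT with Cre (exact permutation, adjusted p = 0.738). In WT the Eif4g3 share with Cre minus that without Cre was -8.04 points (exact permutation, adjusted p = 0.0247), and in C201R the difference of -8.86 points did not pass (adjusted p = 0.0952, exact permutation).

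**Figure D4:**
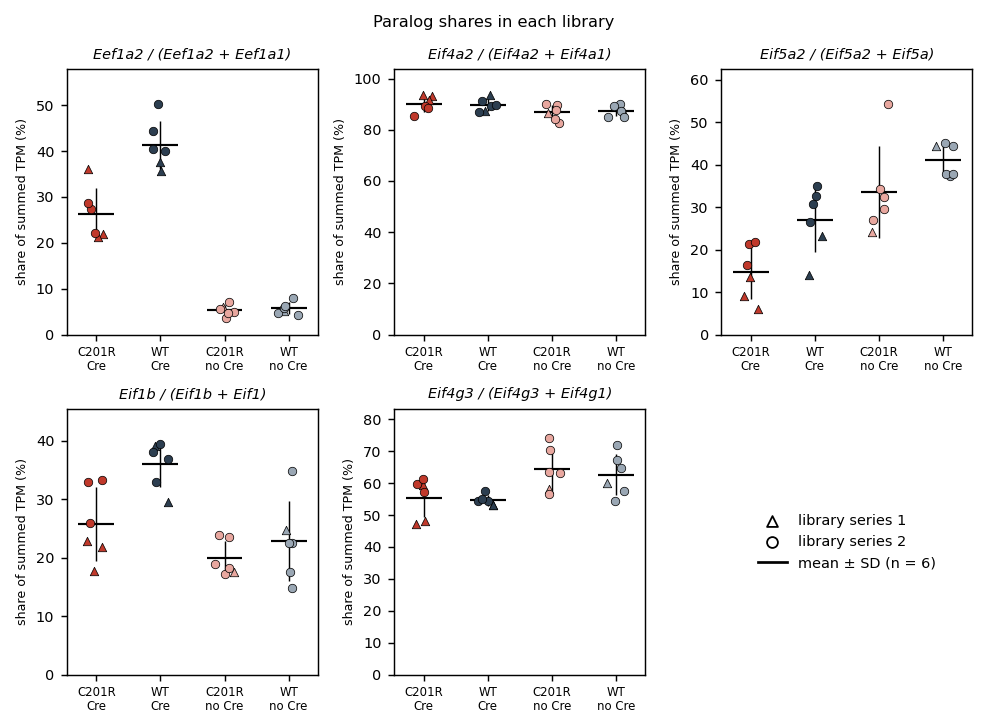
Share of the first gene in the summed TPM of each of 5 pairs, in percent, in each of the 24 libraries (triangles, library series 1; circles, series 2; bars, mean ± SD, n = 6 per group). Eef1a2 averages 26.28% in C201R and 41.42% in WT with Cre, and 5.32% in C201R and 5.71% in WT without Cre.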

How the data were processed

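Per the submitters' processing notes, reads were aligned with Bowtie2 2.2.0 and quantified with RSEM 1.2.12; the genome build and annotation are not given in the sources used here. The authors deposited for each library an expected count, a TPM and an FPKM per gene. RSEM divides reads that fit several genes; 21 members had whole counts in every library and 30 did not (tolerance 0.005). Expected counts were rounded to whole numbers and tested with edgeR 4.0.16 (R 4.3.3): filterByExpr, TMM scaling, library series as a term, the robust quasi-likelihood F test, and Benjamini-Hochberg adjustment over all genes. Standard errors (SE) are the log2 change over the square root of F. CPM for the genotype comparisons are scaled over their own 12 libraries, and those for Cre, markers and plots over all 24. Paralog shares used the deposited TPM, with the deposited FPKM as an alternative, and exact permutation tests in scipy 1.17.1. The fits were tested on simulated data.

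The members and lists were chosen with earlier results of these data known. Named members are those called between genotypes, the 8 largest called increases and decreases with Cre (at least 2 CPM), the paralog pairs and a set of core factors; others are given by range and count. Of 60 pairs of libraries within groups, 0 were identical. The alternatives were RLE scaling, library totals, DESeq2 1.42.0, limma-voom (limma 3.58.1), other filters, covariates and subsets; library series 1 alone, limma-voom and the mitochondrial covariate were added after seeing the data. SDs and SEs cover the spread between mice.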

Additional observations from a re-analysis of the deposited data

Results flagged for a closer look

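In 72 sets of 6 values (called members and paralog pairs in the 4 groups, as log2 CPM scaled over all 24 libraries, and paralog shares), a library was marked where its gap to the nearest of the other 5, divided by the whole range, passed Dixon's 95% critical value. This marked 8 sets, and chance marks about 1 in 20; the sets share libraries. WT mouse 14701-9 with Cre accounts for 5 of them. It was highest for Eif1 at 182.5 CPM (others 85.19 to 102.7) and for Eif1b at 133.8 CPM (others 67.32 to 81.51). It was lowest for Eif3c at 121.4 CPM (others 175.9 to 204.2), Eif4g1 at 105.4 CPM (others 128.4 to 134.4) and Eif4g3 at 167.4 CPM (others 218.0 to 248.8). Among C201R mice without Cre, mouse 14702-8 was lowest for Eif1b at 12.85 CPM (others 17.98 to 21.23) and highest for the Eif5a2 share at 54.31% (others 24.16 to 34.15%). Mouse 14003-2 was lowest for Eif4g3 at 98.68 CPM (others 133.1 to 146.8).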

How the results depend on the processing

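The number of members called between genotypes with Cre was 6, and 4.11% of all genes were called. It was 0 with library totals (0.219% of all genes) and in library series 1 alone (0.00638%), 3 without the library series term (1.99%) and with Xist as a covariate (2.45%), and 1 with the share of Gm26924 in the model (0.834%). It was 10 with DESeq2 (8.99%) and with limma-voom (13.7%), and 11 without mice 14003-1 and 14701-9 (13.3%). With a replicate block by the prefix of the mouse number it was 2 (0.513% of all genes), Eef1a1 (adjusted p = 0.0199) and Eif3c (adjusted p = 0.036). Deviations of same-prefix libraries with Cre had a mean correlation of 0.141 over 6 pairs (lowest -0.041), against 0.001 over 30 other pairs. All 6 same-prefix pairs also shared a library series, for which the deviations were not adjusted. Pairs with other prefixes in the same series ran from -0.258 to 0.456. In series 2 with Cre, same-prefix pairs ran from 0.065 to 0.398 and pairs with other prefixes from 0.036 to 0.336. Without Cre the mean correlation was 0.011 over 10 same-prefix pairs and -0.004 over 26 other pairs. The contrast of 0.141 against 0.001 therefore cannot tell prefix from series, and the prefix does not establish a pairing. Leaving out 1 library gave 2 to 6 (1.14 to 6.27% of all genes). It gave 2 or 3 without C201R mouse 14003-4 or 14703-4, or without WT mouse 14002-6, 14004-6, 14702-3, 14703-5 or 14004-3. In those fits 1.14 to 2.54% of all genes were called. The interaction count of 0 (0.13% of all genes) became 1 (Eef1a1) with DESeq2 (0.714%), limma-voom (0.49%) and series 2 alone (0.157%). It was also 1 without mice 14003-1 and 14701-9 (0.263%), and 0 to 1 with 1 library left out (0.0663 to 0.224%). With Cre against no Cre, the Eef1a1 change turned to 0.052 with library totals and 0.257 in series 1 alone.

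Of the shares, series 2 alone gave no adjusted p under 0.05; the smallest exact p is 0.057 for the genotypes with Cre (3 libraries against 4), 0.036 for Cre in C201R (3 against 5) and 0.016 for Cre in WT (4 against 5). There the Eef1a2 share differed by -17.72 points between genotypes with Cre, by 20.88 with Cre in C201R and by 37.95 in WT; the Eif5a2 share by -11.31, -15.59 and -9.28; the Eif1b share by -6.19 between genotypes and 14.4 with Cre in WT; and the Eif4g3 share by -7.83 with Cre in WT. Without mice 14003-1 and 14701-9 the Eif1b genotype difference was -10.8. From counts not divided by length, the Cre difference in C201R passed for Eif1b (8.36) and Eif4g3 (-9.76). With 1 library left out, the genotype difference with Cre ran from -14.88 to -10.57 for Eif5a2 and from -11.79 to -8.68 for Eif1b, and lost its call in 9 and 8 of 12 fits. The Eif5a2 genotype difference without Cre ran from -11.68 to -5.65 and the Eif4g3 Cre difference in C201R from -10.4 to -6.87, and these passed without C201R mouse 14702-8 and without C201R mouse 14003-3.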
